A study of Mus musculus with 6 samples.

Results

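Of 35 genes listed as marks of the endothelium, the cells that line blood vessels, 33 were measured in the newborn mouse lens, among 12393 genes with a probe set of their own. A probe set was taken for a gene when its annotation names that gene alone, and 46 probe sets met this for the listed genes. For the 10 genes with several, the probe set with the highest mean log2 signal over the 6 arrays stood for the gene. Mmrn2 and Ecscr had no such probe set and were not analysed here.

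The lens has no vessels of its own. In the newborn mouse it is wrapped by the hyaloid vessels and their capillary net, the tunica vasculosa lentis, which regress in the first weeks of life. Endothelial cells read vessel growth factors through the VEGF receptors and the angiopoietin receptor, hold together through cadherins and claudins, and owe their identity to transcription factors of the SOX and ETS families. Macrophages surround these vessels and take part in their regression, and pericytes and other mural cells sit on the outside of the endothelium.

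RNA was taken from newborn lenses at 1 day of age, with both lenses of a mouse in a sample, from 3 wild-type mice on the NMRI background and 3 Pax6 heterozygous mice carrying Pax6 lacZ/+. In these heterozygotes lacZ stands in the place of a working copy of Pax6, the transcription factor of eye development, in every cell of the animal. The samples carry replicate numbers 1 to 3 in each genotype, and nothing states what equal numbers have in common. The methods do not describe how far the vessels were removed at dissection, and the RNA is a bulk extract, so that fewer endothelial cells and less endothelial RNA per cell cannot be told apart.

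Signals are array intensities. They vary with the probe sequences beside the amount of RNA, and levels of different genes are not compared. The median over 33 probe sets of olfactory receptor genes, which serve as a guide to background, lay between 9.65 and 11.0 by array, and their 95th percentile between 11.4 and 15.9. No total count or depth exists for an array, and 3 arrays a genotype limit the precision. Wild-type replicate 1 stood apart in its sex genes, with Xist at 709 against 9.42 to 18.7 on the other arrays and Eif2s3y at 20.5 against 696 to 1242. Pax6 itself read 1169, 1760 and 963 in wild-type replicates 1, 2 and 3 and 942, 1170 and 882 in the heterozygous ones, on its brightest probe set. The heterozygous signal was the lower in 3 of 3 same-numbered pairs, at 80.6%, 66.5% and 91.5% of the wild-type signal, while the genotypes overlapped as groups. The difference did not pass limma's adjusted threshold without the replicate number as a block (adjusted p = 1.00) or with it (adjusted p = 0.509).

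Against this background 18 of the 33 endothelial genes were above the olfactory 95th percentile of the array on every array, 14 on some arrays, and 1, Rasip1, on none. Of all 12393 genes, 2737 were above it on none. The defining markers were unequal in this respect. Kdr, the main signalling receptor for VEGF, read 105, 47.6 and 60.4 in wild-type replicates 1, 2 and 3 and 179, 75.7 and 66.0 in heterozygous replicates 1, 2 and 3, above background throughout. Cdh5, the VE-cadherin of endothelial junctions, read 22.6, 12.8 and 14.4 in wild-type and 26.9, 16.0 and 12.8 in heterozygous lenses. Pecam1, which encodes the adhesion molecule CD31, read 12.4, 9.65 and 9.62 in wild-type and 20.6, 14.5 and 12.2 in heterozygous lenses. Cdh5 passed the background guide on 4 of 6 arrays and Pecam1 on 2, so these markers, which define the cell type, were close to background here. The median signal of 22 of the 33 genes was under 50, while the median over all genes was 30.9 to 35.7 by array.

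The plot of all signals shows the pattern that the rest of the account turns on. In both genotypes most endothelial genes were highest in the sample numbered 1. Replicate 1 gave the highest signal within each genotype for 26 of 33 genes, against 18.4% of all genes, while replicate 2 did so for 0 of 33 (20.8% of all genes) and replicate 3 for 0 of 33 (19.3%). For 24 genes both arrays numbered 1 lay above all 4 others, which was so for 13.5% of all genes; the 9 exceptions were Tie1, Eng, Pecam1, Cldn5, Sox18, Erg, Tal1, Nos3 and Egfl7. Both arrays numbered 2 did so for 0 of the 33 (16.9% of all genes), and both numbered 3 for 0 (14.7%). Heterozygous replicate 1 held the highest of the 6 signals for 29 genes, a count that was not taken over all genes.

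**Figure D1:**
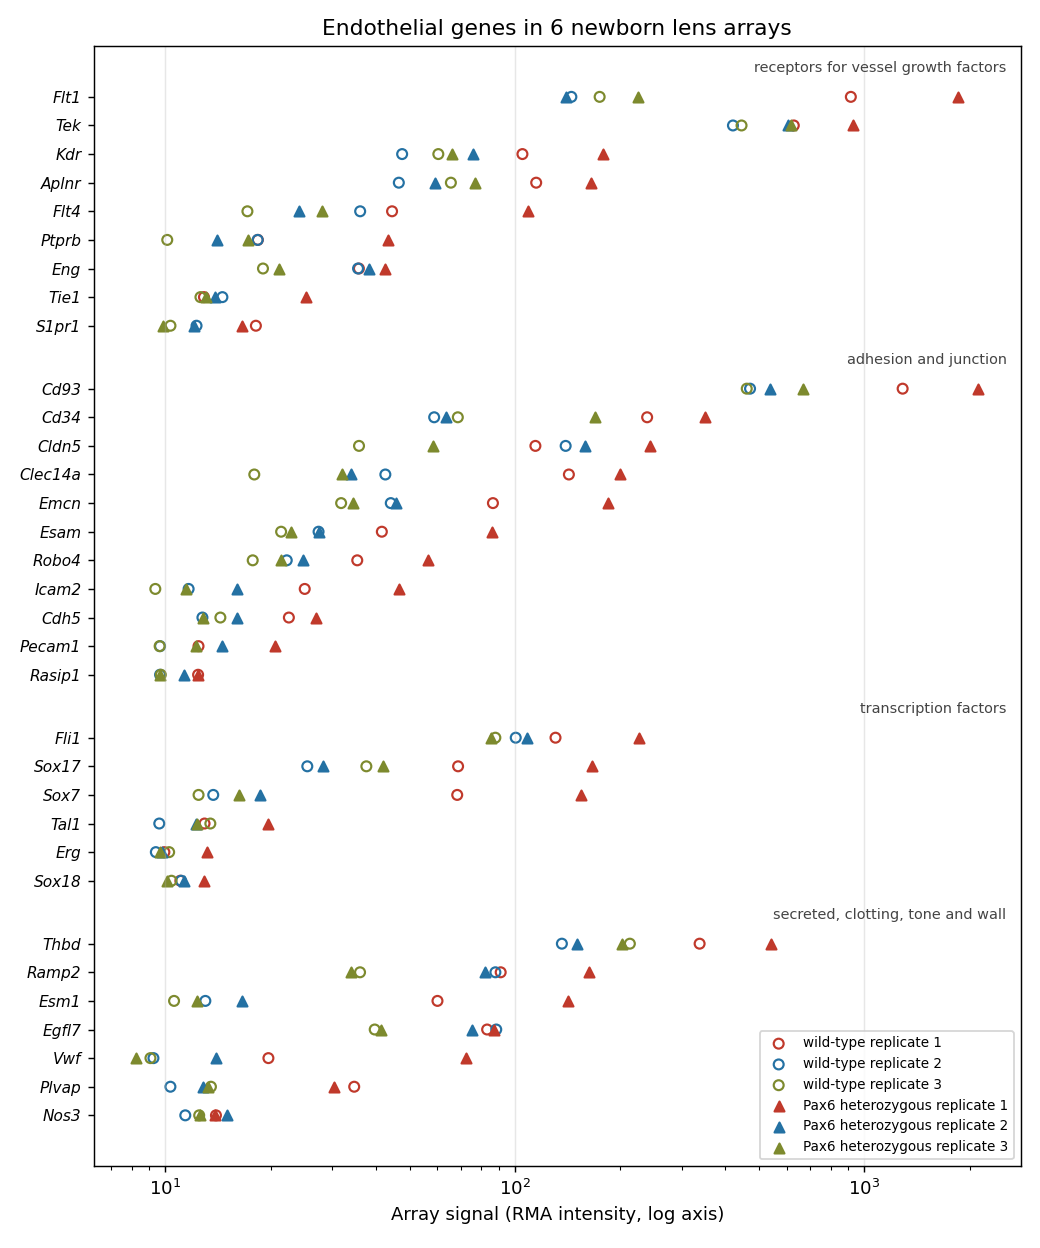
Signals of the 33 endothelial genes on each of the 6 arrays (x axis, RMA intensity on a log axis), grouped by role on the y axis. Open circles are wild-type and filled triangles heterozygous mice, and colour gives the replicate number. The red points of replicate 1 lie to the right of the others for most genes, and 24 genes have both red points above all 4 others.

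Against the mean of replicates 2 and 3, replicate 1 was higher by a median factor of 1.67 in wild-type lenses, with a range over genes from 0.950 (Tie1) to 5.72 (Flt1). In heterozygous lenses the median factor was 2.45, with a range from 1.01 (Nos3) to 10.1 (Flt1). The heterozygous factor exceeded the wild-type factor for 28 of the 33 genes, the 5 others being S1pr1, Cd34, Rasip1, Nos3 and Plvap. This count was not taken over all genes. Whether the factor differs between the genotypes was not tested, since each rests on a single array numbered 1.

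The replicate numbers were then compared in limma with genotype as a term, so that each number has 2 arrays. Of the 33 endothelial genes 23 passed the adjusted threshold in the F test over the 3 numbers, against 19.4% of all 22626 probe sets. Shares of probe sets, here and below, include dimmer and unassigned ones, while members count by their brightest probe set. Counted in that way, 2621 of 12393 genes passed the F test. Replicate 2 was called lower than replicate 1 for 1116 of the 12393, and replicate 3 for 259. Replicate 2 was lower than replicate 1 for 19 genes (7.27% of all probe sets were called lower) and higher for 0 (8.49%). Replicate 3 was lower than replicate 1 for 16 genes (1.54%) and higher for 0 (1.03%). Replicates 2 and 3 were both lower than replicate 1 for 12 genes, a count not taken over all probe sets. Replicate 3 was lower than replicate 2 for 4 genes (8.38%) and higher for 0 (7.33%). In a contrast added after the values were seen, replicate 1 was above the mean of replicates 2 and 3 for 23 genes (4.15%) and below it for 0 (3.72%). Calls in the F test fell to 15 without heterozygous replicate 1, to 11 without heterozygous replicate 3 and to 15 without wild-type replicate 3. The 19 calls of replicate 2 against 1 became 8 without heterozygous replicate 1 and 11 without heterozygous replicate 2, and the 16 calls of replicate 3 against 1 became 0 without any one of heterozygous replicate 1, heterozygous replicate 3 and wild-type replicate 3, and 10 without wild-type replicate 1. An ordinary F test, which takes the variance from each probe set alone, called 0 of the 33 genes and 0 of the 22626 probe sets after adjustment. At an unadjusted p under 0.05 it gave 14 of the 33 genes, against 20.2% of all probe sets, and limma gave 26, against 35.3%.

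**Figure D2:**
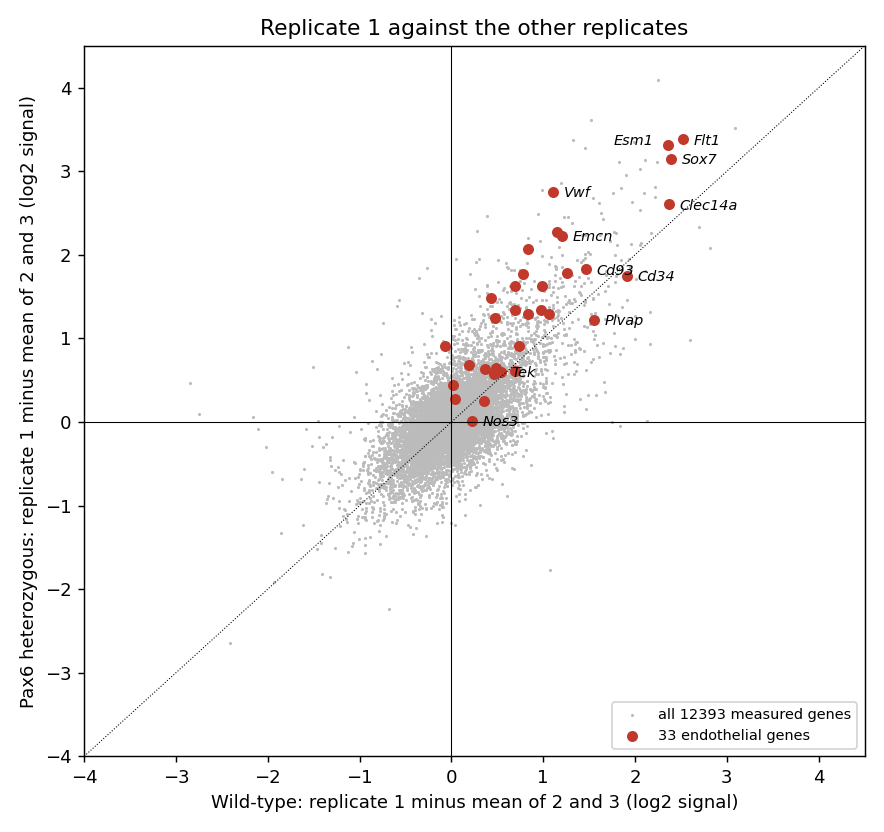
Replicate 1 minus the mean of replicates 2 and 3 on the log2 scale, in wild-type (x axis) and heterozygous lenses (y axis). Grey points are all 12393 measured genes and red points the 33 endothelial genes, and the dotted line marks equal differences. Flt1, Sox7, Esm1 and Clec14a lie at the upper right, and Nos3 lies close to 0 in heterozygous lenses.

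Among the genes that moved together, Flt1, Cd34, Emcn and Clec14a are shown with the 250 bases before their start sites. These genes were all highest in replicate 1 of both genotypes, and they differ in whether they hold the ETS motif searched here, CGGAAG or AGGAAG. They were chosen after their values were seen. Sequences are from RefSeq on GRCm38.p6, written 5′ to 3′ on the strand of the gene, with each such ETS motif, on either strand, in capitals. Flt1 lies on the minus strand at chr5:147726012-147726261, Cd34 on the plus strand at chr1:194938571-194938820, Emcn on the plus strand at chr3:137340828-137341077 and Clec14a on the minus strand at chr12:58269259-58269508.
Flt1: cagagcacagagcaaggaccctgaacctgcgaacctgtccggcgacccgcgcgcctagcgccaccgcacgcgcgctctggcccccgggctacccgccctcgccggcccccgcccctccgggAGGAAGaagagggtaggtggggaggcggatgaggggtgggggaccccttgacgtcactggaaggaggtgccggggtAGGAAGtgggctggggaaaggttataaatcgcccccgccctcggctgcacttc
Cd34: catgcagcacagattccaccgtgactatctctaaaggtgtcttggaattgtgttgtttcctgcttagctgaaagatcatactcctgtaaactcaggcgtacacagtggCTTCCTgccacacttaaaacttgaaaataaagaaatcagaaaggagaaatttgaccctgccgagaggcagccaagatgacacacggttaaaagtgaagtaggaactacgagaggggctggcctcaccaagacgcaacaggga
Emcn: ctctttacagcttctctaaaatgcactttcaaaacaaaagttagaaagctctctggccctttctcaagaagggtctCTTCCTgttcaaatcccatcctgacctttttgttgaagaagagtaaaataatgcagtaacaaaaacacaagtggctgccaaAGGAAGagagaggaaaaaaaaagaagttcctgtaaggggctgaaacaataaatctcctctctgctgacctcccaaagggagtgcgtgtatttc
Clec14a: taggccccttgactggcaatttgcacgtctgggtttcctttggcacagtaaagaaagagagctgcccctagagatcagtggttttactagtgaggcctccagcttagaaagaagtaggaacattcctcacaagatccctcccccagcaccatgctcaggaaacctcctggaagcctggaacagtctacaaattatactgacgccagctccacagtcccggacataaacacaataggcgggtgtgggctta

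Flt1 held 2 of these ETS motifs, at -129 and -53 from the start site, Emcn 2, at -174 and -93, and Cd34 1, at -142, while Clec14a held 0. Shorter matches such as GGAA, which the Clec14a window also holds, were not counted. Windows were at hand for 16 of the 35 listed genes, in 21 windows. The ETS motif was in 10 of them (47.6%), against 39.2% of all 32851 promoter windows of the same length. The SOX motif AACAAT was in 3 of 21 (9.42% of all windows), with 1 in Emcn, and the GATA motif AGATAA in 2 of 21 (9.99%), both searched on either strand. These matches describe letters in a window. Genes with and without the searched ETS motif were both among those highest in replicate 1.

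Among the 9 genes grouped as receptors for vessel growth factors, with the phosphatase Ptprb counted among them, 6 passed the F test, against 19.4% of all probe sets. In 8 of them replicate 1 was the highest in both genotypes, against 18.4% of all genes. Flt1, which binds VEGF-A and placental growth factor and limits what reaches Kdr, read 914, 145 and 175 in wild-type replicates 1, 2 and 3 and 1854, 140 and 225 in heterozygous ones. Both arrays numbered 1 were several times above all others, and the genotypes overlapped on the remaining 4. On the log2 scale replicate 2 minus 1 was -3.19 ± 0.25 (standard error; limma, adjusted p = 0.00473) and replicate 3 minus 1 was -2.72 ± 0.25 (adjusted p = 0.0162). Both dimmer probe sets of Flt1 were also highest in replicate 1 of each genotype.

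For Kdr the differences of replicates 2 and 3 from replicate 1 were -1.19 ± 0.18 (limma, adjusted p = 0.0123) and -1.12 ± 0.18 (adjusted p = 0.0429). Aplnr, the receptor for apelin, read 115, 46.5 and 65.6 in wild-type and 165, 59.1 and 76.7 in heterozygous lenses. Replicate 1 was the highest in both genotypes, as for Kdr, and replicate 2 the lowest, which for Kdr was so in wild-type lenses alone. The difference of replicate 2 from 1 was -1.39 ± 0.13 (limma, adjusted p = 0.00556). Tek, the angiopoietin receptor also called Tie2, read 628, 421 and 445 in wild-type and 927, 604 and 617 in heterozygous lenses. Its spread over the numbers was smaller, with replicate 2 minus 1 at -0.60 ± 0.12 (limma, adjusted p = 0.0238) and replicate 3 minus 1 at -0.54 ± 0.12 (adjusted p = 0.0722).

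Flt4, the receptor for VEGF-C and VEGF-D, read 44.5, 36.1 and 17.2 in wild-type and 109, 24.1 and 28.1 in heterozygous lenses. Ptprb, a phosphatase that acts on Tek and on VE-cadherin, read 18.4, 18.4 and 10.1 in wild-type and 43.5, 14.0 and 17.2 in heterozygous lenses. Tie1, a partner of Tek, read 12.9, 14.6 and 12.6 in wild-type and 25.3, 13.9 and 13.1 in heterozygous lenses. In these 3 genes heterozygous replicate 1 stood above the rest while wild-type replicate 1 did not by as much, and none passed the F test (adjusted p of 0.0684 for Flt4, 0.150 for Ptprb and 0.395 for Tie1). Eng, a co-receptor for TGF-beta and BMP ligands, and S1pr1, a receptor for sphingosine 1-phosphate, passed it at 0.0105 and 0.0190, with signals of at most 42.4 and 18.1.

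Of the 11 measured adhesion and junction genes 9 passed the F test, against 19.4% of all probe sets. Cd93, a transmembrane lectin of endothelium and some blood cells, read 1286, 471 and 461 in wild-type and 2119, 536 and 666 in heterozygous lenses. Cd34, a sialomucin of capillaries and blood progenitors, read 239, 58.7 and 68.6 in wild-type and 349, 63.4 and 170 in heterozygous lenses. Clec14a, a lectin of the same family as Cd93, read 143, 42.6 and 18.0 in wild-type and 200, 34.0 and 31.9 in heterozygous lenses. Replicate 1 was the highest of each genotype in all 3 of these genes, whereas the order of replicates 2 and 3 was not shared. The differences of replicate 2 from 1 were -1.72 ± 0.16 for Cd93, -2.24 ± 0.27 for Cd34 and -2.15 ± 0.27 for Clec14a (limma, adjusted p of 0.00553, 0.00762 and 0.00796). A second probe set of Cd93 lay at 8.61 to 13.2, near background, and did not show the order.

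Emcn, the sialomucin endomucin of capillaries and veins, read 86.5, 44.1 and 31.8 in wild-type and 185, 45.7 and 34.3 in heterozygous lenses. The array numbered 1 was on top and that numbered 3 at the bottom in both genotypes, with replicate 3 minus 1 at -1.94 ± 0.27 (limma, adjusted p = 0.0319). Cdh5, given above, differed by -0.79 ± 0.16 between replicates 2 and 1 (limma, adjusted p = 0.0257). Pecam1 missed the F test (adjusted p = 0.0694), as did Rasip1, a protein of vessel lumen formation (adjusted p = 0.184). Esam, Icam2 and Robo4, all of them surface proteins of the endothelium, passed it, with adjusted p of 0.0300, 0.00851 and 0.0136.

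Cldn5, the main claudin of endothelial tight junctions, had another order. It read 114, 140 and 35.8 in wild-type and 244, 158 and 58.4 in heterozygous lenses. Replicates 1 and 2 were both high and replicate 3 was the lowest in each genotype. Replicate 3 minus 2 was -1.70 on the log2 scale (limma, adjusted p = 0.00969), while replicate 2 minus 1 was -0.17 ± 0.22 (adjusted p = 0.685). The same call of replicate 3 below 2 was made for Eng (-0.88, adjusted p = 0.0103), for Egfl7, a secreted protein that guides vessel tubes (-1.01, adjusted p = 0.0103), and for Ramp2, which makes the calcitonin-like receptor respond to adrenomedullin (-1.28, adjusted p = 0.0244). Ramp2 read 91.0, 87.9 and 36.0 in wild-type and 163, 82.1 and 33.8 in heterozygous lenses. These 4 genes were the calls of that contrast, 12.1% of the 33 against 8.38% of all probe sets.

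The 6 transcription factors were split by signal, and 2 of them passed the F test, against 19.4% of all probe sets. Sox7, of the SOX group F that specifies endothelium, read 68.4, 13.7 and 12.4 in wild-type and 154, 18.6 and 16.3 in heterozygous lenses. Sox17, of the same group, read 68.8, 25.5 and 37.6 in wild-type and 166, 28.2 and 42.0 in heterozygous lenses. In both, replicate 1 was clear of the other numbers, with replicate 2 minus 1 at -2.68 ± 0.21 for Sox7 and -1.99 ± 0.29 for Sox17 (limma, adjusted p of 0.00477 and 0.0107). Sox7 was 35th of all 12393 genes by the F test, Flt1 the 52nd and Esm1 the 90th, and 18 of the 33 genes were among the first 1000. A second probe set of Sox17 lay at 8.73 to 11.9 and had no such order. Fli1, an ETS factor of endothelium and blood cells, read 131, 101 and 87.9 in wild-type and 227, 108 and 85.2 in heterozygous lenses. Replicate 1 was the highest and replicate 3 the lowest in both genotypes, and the gene missed the F test (limma, adjusted p = 0.0503). Sox18, Erg and Tal1, a SOX, an ETS and a helix-loop-helix factor, reached at most 12.9, 13.2 and 19.6 and had adjusted p of 0.470, 0.464 and 0.178.

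Of the 7 genes of secretion, clotting, vessel tone and wall 6 passed the F test, against 19.4% of all probe sets. Thbd, the thrombomodulin that turns thrombin toward anticoagulation, read 338, 136 and 213 in wild-type and 540, 151 and 203 in heterozygous lenses. Esm1, a proteoglycan secreted by endothelial tip cells, read 60.0, 13.0 and 10.6 in wild-type and 141, 16.5 and 12.3 in heterozygous lenses. Esm1 was near background except in replicate 1, where it stood out in both genotypes, and replicate 3 minus 1 was -3.01 ± 0.26 (limma, adjusted p = 0.0144). For Thbd replicate 2 minus 1 was -1.58 ± 0.20 (limma, adjusted p = 0.00788). Vwf, the platelet-binding von Willebrand factor, reached 72.5 in heterozygous replicate 1 and 19.7 in wild-type replicate 1, and 8.24 to 14.0 elsewhere. Plvap, which forms the diaphragms of fenestrated capillaries, reached 34.7 and 30.3 in wild-type and heterozygous replicate 1. Nos3, the endothelial nitric oxide synthase, stayed between 11.4 and 15.0 (F test adjusted p = 0.745).

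Over the 33 genes the median deviation from the genotype's mean was 0.52, -0.17 and -0.38 on the log2 scale in wild-type replicates 1, 2 and 3, and 0.89, -0.35 and -0.47 in heterozygous ones. Their summed signal was 4853, 2152 and 2019 in wild-type and 8349, 2484 and 2625 in heterozygous lenses. The median SD of log2 signals within a genotype was 0.64 for these genes in wild-type and 0.78 in heterozygous lenses, against 0.21 in each for all genes. The 13 further probe sets of genes with several were higher in replicate 1 than in the mean of replicates 2 and 3 for 12, and 4 of them passed the F test.

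Other cell types of the eye were followed with lists of their own, of which several moved with the number. Mural cells had 9 of 15 genes past the F test, against 19.4% of all probe sets. Their median deviations were 0.38 and 0.63 in wild-type and heterozygous replicate 1. Rgs5, a pericyte regulator of G protein signalling, read 2269, 1152 and 644 in wild-type and 4093, 1594 and 1241 in heterozygous lenses. Kcnj8 and Abcc9, which encode the potassium channel of pericytes, also passed, as did Higd1b, Acta2, Pdgfrb, Notch3, Tagln and Mcam. Replicate 3 was lower than replicate 2 in 5 mural genes, Pdgfrb, Kcnj8, Acta2, Tagln and Higd1b, against 8.38% of all probe sets. It was higher in 1 mural gene (7.33%), and the median difference over the mural genes was 0.02. The summed mural signal ran from 1057 to 3108 in wild-type and from 1777 to 5460 in heterozygous lenses, and 5 of the 15 genes were at background on all arrays.

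Macrophage genes had 10 of 18 past the F test, against 19.4% of all probe sets. Their median deviations were 0.63, -0.27 and -0.40 in wild-type and 0.84, 0.32 and -1.27 in heterozygous lenses. Lyve1, a receptor of perivascular macrophages and of lymphatic vessels, read 222, 26.9 and 36.8 in wild-type and 241, 114 and 28.4 in heterozygous lenses (F test adjusted p = 0.0351). Csf1r, the growth factor receptor of macrophages, read 261, 61.3 and 91.1 in wild-type and 343, 158 and 39.2 in heterozygous lenses (adjusted p = 0.0629). Heterozygous replicates 2 and 3 were far apart in these genes, whereas the median deviations of the endothelial genes in them were -0.35 and -0.47. The summed macrophage signal ran from 701 to 2187 in wild-type and from 464 to 2591 in heterozygous lenses.

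Pigment cell genes had 5 of 8 past the F test, which called 19.4% of all probe sets. Their median deviations were 0.53 and 0.43 in wild-type and heterozygous replicate 1, with a summed signal of 2289 to 3548 and 2029 to 3321. Dct, an enzyme of melanin synthesis, read 502, 150 and 118 in wild-type and 491, 172 and 184 in heterozygous lenses. The mesenchyme list had 3 of 14, with median deviations of 0.26 and 0.21 in wild-type and heterozygous replicate 1. The retina list had 2 of 14, the red blood cell list 1 of 8 and the platelet list 1 of 6. The counts of the mesenchyme, retina and lens lists lay near the share of all probe sets. The lymphatic list had 3 of 4, Prox1, Reln and Lyve1, of which lens fibers also express Prox1. Lyve1 was higher in replicate 1 than in the mean of replicates 2 and 3, and Prox1 and Reln were lower (limma, adjusted p of 0.0374, 0.0281 and 0.0445). The platelet gene was Pf4, with 159, 165 and 62.4 in wild-type and 109, 186 and 25.5 in heterozygous lenses, highest in replicate 2. Lens genes had 3 of 13, Crybb2, Bfsp1 and Gja3, all of them higher in replicate 2 than in replicate 1, and median deviations of -0.15 and -0.16 in the arrays numbered 1. Their summed signal ran from 122129 to 147224 in wild-type and from 117971 to 144620 in heterozygous lenses. The part of vessel-associated and pigmented tissue left on the lens in these differences was not tested.

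**Figure D3:**
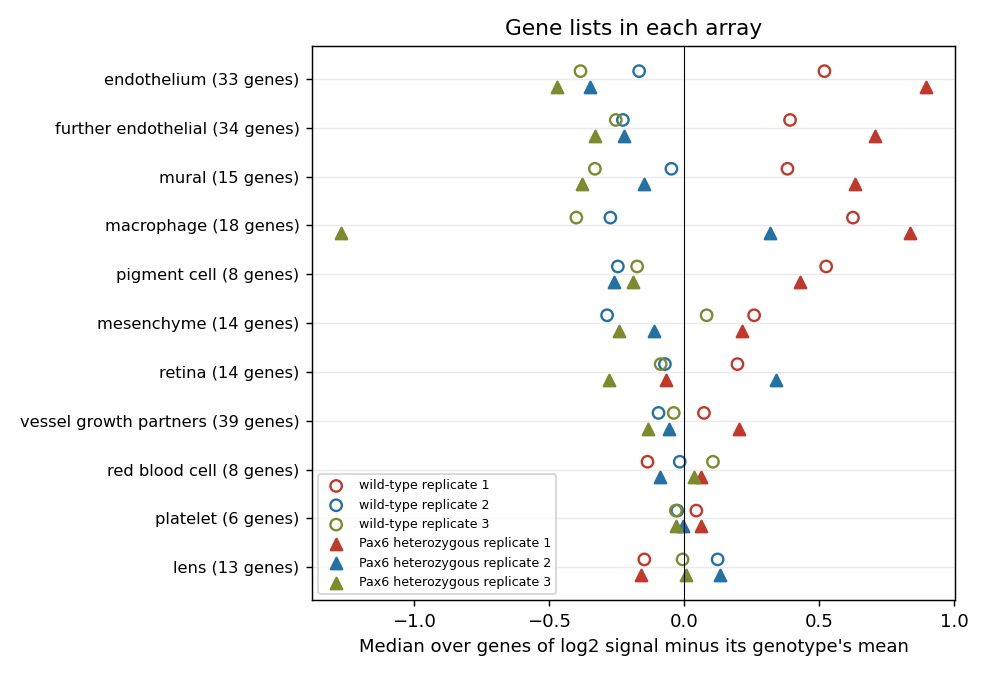
Median over the genes of each list of log2 signal minus the mean of its genotype (x axis), per array, with circles for wild-type and triangles for heterozygous lenses and colour for the replicate number. Replicate 1 lies to the right for endothelial, further endothelial, mural, macrophage, pigment cell and mesenchyme genes. It does so by less for vessel growth partners and platelet genes, and lies to the left for lens genes.

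Genes around the endothelial ones followed in part. Of 34 measured genes of a further endothelial list, 15 passed the F test, against 19.4% of all probe sets. Replicate 2 was lower than replicate 1 for 16 of them (7.27%) and replicate 3 for 12 (1.54%), with 0 higher in either. Cav1, the coat protein of caveolae, read 241, 46.9 and 67.2 in wild-type and 329, 34.7 and 70.0 in heterozygous lenses. Gata2, a transcription factor of endothelium and blood, read 83.6, 28.6 and 32.4 in wild-type and 88.2, 24.1 and 24.0 in heterozygous lenses. Both were highest in the arrays numbered 1, with F test adjusted p of 0.00705 and 0.00706. The others were Sparcl1, Foxc1, Foxc2, Bcl6b, Myct1, Gimap6, She, Kitl, Ets1, Adgrl4, Elk3, Icam1 and Hhex.

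Among 39 measured ligands and partners of vessel growth 9 passed the F test, a count near the share of all probe sets (19.4%). Nrp1, the neuropilin that binds VEGF-A beside Kdr, read 776, 193 and 179 in wild-type and 1152, 254 and 277 in heterozygous lenses. As for Flt1, replicate 1 was the highest in both genotypes, with replicate 2 minus 1 at -2.09 ± 0.13 (limma, adjusted p = 0.00473). Notch4 and Heyl, a Notch receptor and a target of Notch, Hey1, Acvrl1, a receptor for BMP ligands, and Col18a1, the collagen that yields endostatin, passed as well. Vegfa itself, the growth factor for Kdr and Flt1, read 167, 113 and 124 in wild-type and 189, 111 and 145 in heterozygous lenses (F test adjusted p = 0.0370). Pgf, a ligand of Flt1, was highest in replicate 2 of both genotypes, and Wnt7b, a macrophage signal for hyaloid regression, was lower in replicate 1 than in replicate 2. Angpt2, the antagonist ligand of Tek, had an adjusted p of 0.414.

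The comparison for which the arrays were made is that of the genotypes, and no endothelial gene separated them. In limma 0 of the 33 genes passed the adjusted threshold for heterozygous minus wild-type, as did 0.0% of the 22626 probe sets. At an unadjusted p under 0.05, 1 gene was higher, Pecam1 (0.977% of all probe sets), and 0 were lower (1.01%), and the methods' t-test on log2 signals gave 0 of 33 (2.94%). At the wider threshold that the methods state, an unadjusted p under 0.1, that test gave 1 of 33, Pecam1 again, against 5.86% of all probe sets, and 0 after adjustment. On linear signals it gave 0 of 33 at that threshold (5.75%). Pecam1 differed by 0.55 ± 0.22 (limma, adjusted p = 1.00), being higher in 3 of 3 same-numbered pairs. The 3 heterozygous arrays were above the 3 wild-type arrays without overlap for 0 of 33 genes, against 2.57% of all genes.

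The log2 difference was above 0 for 31 of 33 genes, the exceptions being S1pr1 and Egfl7, against 47.0% of all genes. Its median was 0.37 over the endothelial genes and -0.01 over all genes. The size of these values turned on the arrays numbered 1. Most of the genes were highest on these arrays in both genotypes, so leaving out 1 of them alone unbalances the comparison. Without heterozygous replicate 1 the difference was above 0 for 9 of 33 genes and its median was -0.13, and without wild-type replicate 1 it was above 0 for all 33 and the median 0.68. Without both arrays numbered 1, a comparison added after the values were seen, 27 of 33 were above 0 with a median of 0.15. In the other lists, of which 0 genes passed the adjusted threshold, the difference was above 0 for 14 of 15 mural genes (median 0.29), 16 of 18 macrophage genes (0.34), 26 of 34 further endothelial genes (0.20) and 11 of 14 retina genes (0.31). It was above 0 for 25 of 39 ligands and partners of vessel growth (0.10) and 3 of 4 lymphatic genes (0.13). In the remaining lists it was above 0 for 3 of 13 lens genes (-0.06), 4 of 14 mesenchyme genes (-0.12), 3 of 8 pigment cell genes (-0.07), 3 of 8 red blood cell genes (-0.07) and 1 of 6 platelet genes (-0.06). Their part in the endothelial difference was not tested.

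Within same-numbered pairs, the heterozygous lens had the higher signal for 30 genes in pair 1, 25 in pair 2 and 22 in pair 3, against 47.3%, 50.6% and 45.6% of all genes. The median differences were 0.72, 0.15 and 0.13 on the log2 scale. Pair 1 alone also differed strongly in its sex genes. Xist read 709 in its wild-type and 11.6 in its heterozygous sample, and Eif2s3y 20.5 and 797. The part of this in the pair 1 differences was not tested. All 3 pairs were higher for 15 genes, against 14.4% of all genes, and all 3 lower for 1, S1pr1, against 17.6%. The ratio exceeded 2 for 10 genes in pair 1, 0 in pair 2 and 1 in pair 3, counts that were not taken over all genes.

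With the replicate number as a block in limma, the calls after adjustment were again 0 of 33, against 0.00884% of probe sets, and the smallest adjusted p of an endothelial gene was 0.287, for Tek. At an unadjusted p under 0.05 this fit gave 11 genes, all higher in heterozygous lenses, against 4.43% of probe sets higher and 4.59% lower. They were Tek, Pecam1, Icam2, Sox7, Cd93, Cldn5, Kdr, Aplnr, Cd34, Esm1 and Robo4. Tek had nearly equal ratios in all pairs, the heterozygous signal being 148%, 144% and 139% of the wild-type signal in pairs 1, 2 and 3. Its difference was 0.52 ± 0.23 without the block (limma, adjusted p = 1.00). Kdr had 171%, 159% and 109%, and Cd34 had 146%, 108% and 248%. Sox7 was the highest of the measured transcription factors in this difference, at 0.67 ± 1.04 without the block (limma, adjusted p = 1.00), with an error larger than the difference. Flt1 was at 203% in pair 1, 96.8% in pair 2 and 129% in pair 3, so that its pairs did not share a direction.

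**Figure D4:**
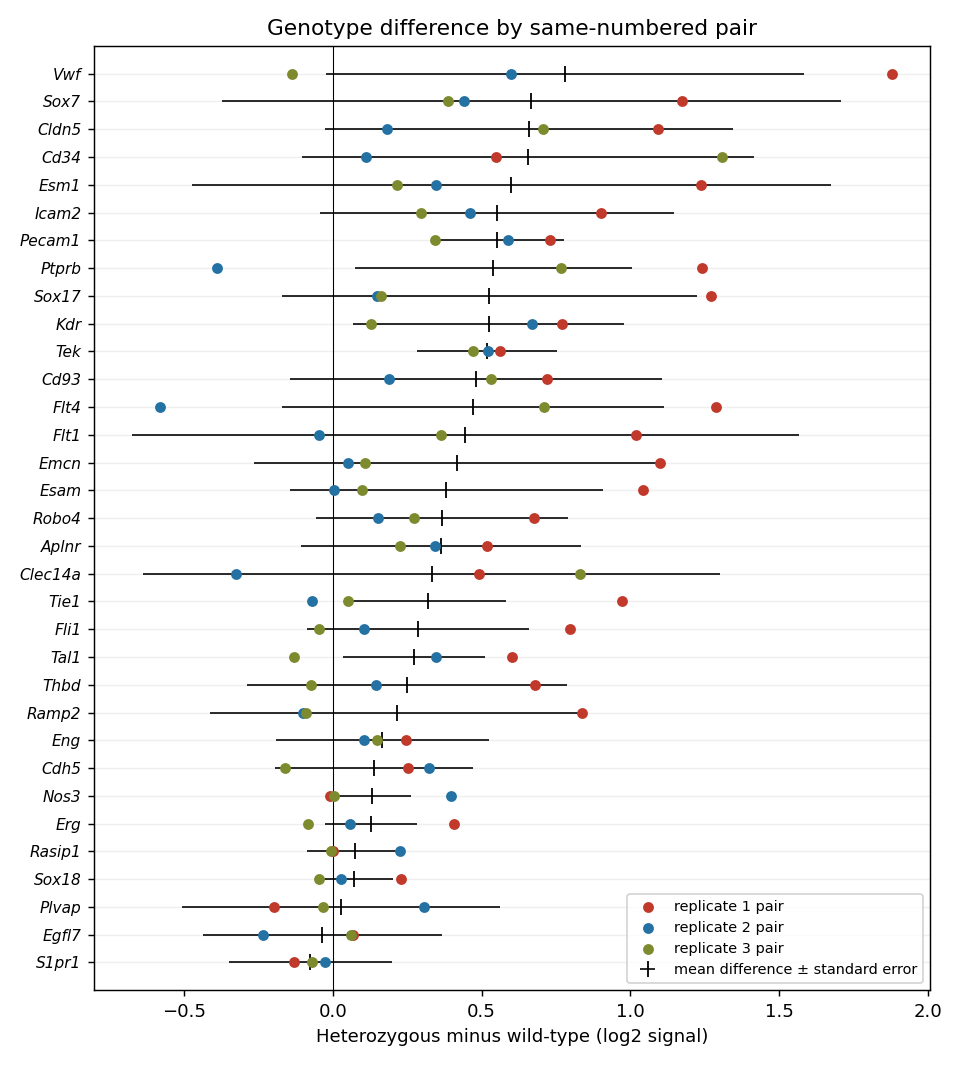
Heterozygous minus wild-type log2 signal for the 33 endothelial genes, ordered by the mean difference. Coloured points are the same-numbered pairs, and black marks with bars are the mean difference ± its standard error in limma without the block. The mean is above 0 for 31 genes, the pair numbered 1 is often the farthest to the right, and Tek has its 3 pairs close together.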

How the data were processed

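RNA of 6 newborn lens samples, 3 wild-type and 3 Pax6 heterozygous, was amplified, labelled with biotin and hybridized to Affymetrix arrays. The authors deposited signal intensities that they had normalized by RMA, whose version is not given in the sources used here; the values are linear, and ratios of dim genes are drawn toward 1. The methods name an array design with more probe sets than the deposited table holds, and which design was used was not settled.

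The log2 of each signal was taken without normalizing again, leaving out 64 control probe sets. Of 22626 probe sets 20380 name a single gene, 691 several and 1555 none, and 20351 of the first were matched by Entrez number to the RefSeq gene table. Genotype and replicate number were compared with limma 3.58.1 in R 4.3.3, adjusting by Benjamini-Hochberg over all 22626 probe sets at a threshold of 0.05. The steps were checked on simulated data. The methods' t-test was run on the same values. The methods also selected genes by Pavlidis template matching at p under 0.05, which was not run here. Because the samples are single mice, p-values of the genotype comparison without the block measure the spread between mice of a genotype. With the replicate number as a term, they measure how far the genotype difference varies over the same-numbered pairs. In limma both spreads are moderated over all probe sets.

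The genes and lists were chosen with earlier results of these data known. Values on every array are given for genes with a signal of 100 or more on an array, for the 4 smallest p of each comparison and for Kdr, Pecam1 and Cdh5; from other lists, genes past the threshold, and a few further ones chosen after their values were seen, as were the olfactory receptors.

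Deviations from the genotype means correlated at 0.645, 0.734 and 0.604 between same-numbered arrays and from -0.496 to -0.0751 between others. Such deviations cancel within a genotype, so positive values between same-numbered arrays bring negative ones between others. All pairs with a shared number were over 0.1, so the numbers were taken to pair the samples, on the data alone; the fit without the block was kept and the block set beside it. The alternatives were other normalizations, a median signal of at least 20 or 50, another prior, other probe sets of a gene, no genotype term, and leaving out arrays. Promoter windows are RefSeq's on GRCm38.p6. Quantitative PCR, chromatin assays and telencephalon arrays were not analysed here. Figures were drawn with matplotlib 3.10.9.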

Additional observations from a re-analysis of the deposited data

How the results depend on the processing

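No endothelial gene passed the adjusted threshold between genotypes under any alternative run. The count at an unadjusted p under 0.05 was 1, and became 0 at a median signal of at least 20 or of at least 50 and with the methods' t-test on log2 or on linear signals at that bound, 2 without both arrays numbered 1, 11 with the replicate block, and 0 to 2 with an array left out. The block changed no other call.

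The 23 calls over the replicate numbers became 11 of 11 genes left at a signal of 50, 0 with the ordinary F test, and 11 to 22 with an array left out. Replicate 2 below 1 was called for 12 genes at a signal of 20, 7 at 50, 0 without moderation, and 8 to 17 with an array left out. Replicate 3 below 1 was called for 9 with no genotype term, 0 without moderation, 10 with the second brightest probe set, 25 with the trend and robust prior, and 0 to 19 with an array left out. Fewer genes enter at the higher signals: there the difference was above 0 for 17 of 18 and 10 of 11, and replicate 1 the highest in both genotypes for 16 of 18 and 9 of 11. With an array left out, 9 to 33 genes lay above 0, with medians of -0.13 to 0.68. The ends of these ranges came without heterozygous replicate 1 and without wild-type replicate 1, each of which unbalances the comparison. The cause of the other changes was not tested.

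Of the 20 genes given on every array, 13 changed the sign of the genotype difference when an array was left out. All 13 did so without heterozygous replicate 1, while wild-type replicate 1, the highest wild-type array for each, stayed in. The ranges were -0.68 to 1.29 for Flt1, -0.22 to 0.87 for Flt4, -0.0675 to 0.72 for Aplnr, -0.16 to 0.38 for Cdh5, -0.32 to 0.89 for Emcn, -0.54 to 1.12 for Clec14a, -0.13 to 0.97 for Cd93, -0.38 to 1.46 for Sox7, -0.23 to 1.05 for Sox17, -0.13 to 0.58 for Fli1, -0.29 to 0.63 for Thbd, -0.50 to 1.39 for Esm1 and -0.33 to 0.81 for Ramp2. Without both arrays numbered 1, the sign changed for Tie1, at -0.00774, and Ramp2, at -0.10. Cdh5 was at -0.0819 with the mean of its probe sets and at -0.30 with the second brightest, and Cd93 at -0.0600 with the second brightest. Replicate 2 minus 1 ranged from -0.83 to 0.15 for Tie1 and from -0.53 to 0.19 for Cldn5 with an array left out, and was 0.12 for Sox17 with the second brightest probe set. Dim signal limits the genes near background: 1 of the 33 never passed the olfactory guide and 14 did so on some arrays.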

Other observations

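Genes outside the vessel lists that were highest in replicate 1 of both genotypes were chosen after their values were seen and are given as values. Slc16a3, a lactate transporter, read 190, 23.7 and 20.9 in wild-type replicates 1, 2 and 3 and 246, 27.8 and 16.7 in heterozygous ones. Ldha, the lactate dehydrogenase of glycolysis, read 1962, 946 and 638 in wild-type and 2453, 1215 and 648 in heterozygous lenses. Both were highest in the arrays numbered 1, and limma's F test gave adjusted p of 0.00678 and 0.00705. Ddit4, a stress-induced brake on growth signalling, read 2414, 409 and 635 in wild-type and 5159, 358 and 998 in heterozygous lenses. Egln3, an oxygen-sensing hydroxylase, read 125, 33.8 and 37.4 in wild-type and 204, 42.4 and 84.6 in heterozygous lenses. The immediate early gene Fos read 209, 81.1 and 65.4 in wild-type and 645, 51.4 and 54.3 in heterozygous lenses, again with both arrays numbered 1 on top. The part of these genes in the endothelial differences was not tested.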
